A study of Homo sapiens with 6 samples.

Results

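The genes described here are 36 integrins and focal adhesion proteins, measured in A375 cells in which the ubiquitin-conjugating enzyme UBE2S was knocked down and in control A375 cells. A member was taken through every probe set that the array's annotation gives a single gene symbol for, and the mean of these probe sets stood for the gene. By this rule 34 of the 36 members were measured, with 122 probe sets, among 18132 genes with 44988 probe sets in all. They were 19 integrin subunits of 20 listed and 15 cytoplasmic adhesion proteins of 16 listed. ITGB6 and FLNA were not analysed here as members, because no probe set carried their symbol alone. A375 is an established human melanoma cell line. The knockdown cells had received a short hairpin RNA against UBE2S through a lentivirus, and the labels spell the target in more than 1 way, read here as UBE2S throughout. What the control cells received, the number of hairpins, any selection or cloning, and the time after infection are not given in the sources used here. Each group held 3 replicates, 1 array each, which the labels call biological without naming separate cultures, so the p-values measure only the spread between these samples.

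Integrins are cell surface receptors made of 1 alpha and 1 beta subunit, which bind matrix proteins such as collagen, laminin and fibronectin outside the cell. Inside the cell, talin and kindlin bind the beta tail and switch the receptor on, and a plaque of further proteins, among them paxillin, vinculin, focal adhesion kinase and the complex of ILK, PINCH and parvin, joins it to actin and to signalling. In melanoma, the set of integrins on the surface is known to bear on attachment, migration and survival.

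The deposited values were log2 expression with each probe set centred on its median over the 6 arrays, so a value says how far an array lies above or below the middle of the arrays and nothing about the level of a gene. A change is the knockdown mean minus the control mean on this log2 scale, with the standard error (SE) of the fit. An adjusted p is that of limma's moderated test with the Benjamini-Hochberg adjustment over all 18132 genes, and a gene rose or fell where it was under 0.05. UBE2S itself read -1.13, -1.05 and -1.01 on the knockdown arrays and 1.06, 1.01 and 1.01 on the control arrays, a fall to 23.5% of the control (change -2.09, SE 0.04, adjusted p 9.23e-08). Array medians lay between -0.00893 and 0.00366 and array SDs between 0.174 and 0.183, and the number of arrays limits the precision. The 18 hybridization and 24 poly-A spike-in probe sets, RNAs added in the laboratory, were 0.168 and 0.0978 higher in knockdown arrays. When each array was centred on them, the median change of all genes went from -0.0038 to -0.17 with the hybridization and to -0.10 with the poly-A spike-ins, and changes on the deposited scale are therefore relative to the other genes. The 3′ minus 5′ difference of the ACTB control probe sets, a sign of RNA quality, was 0.191 higher in knockdown arrays with no overlap, while that of GAPDH was 0.0226 higher with overlap. The part of these differences in the results below was not tested.

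Integrin subunits and the proteins behind them went different ways on the deposited scale: 9 of the 19 measured integrin subunits rose and 1 fell, whereas 1 of the 15 measured cytoplasmic proteins rose and 9 fell, and this split moved with spike-in centring. On the deposited scale 21.4% of all genes rose and 18.6% fell. Relative to the poly-A spike-ins 6 subunits rose and 4 fell, where 2486 of all 18132 genes rose and 6297 fell. Relative to the hybridization spike-ins 2 subunits rose and 6 fell, where 1764 of all genes rose and 9196 fell. The cytoplasmic proteins had 0 rises with either centring and 11 and 13 falls. Their median change was -0.24, against 0.12 for the integrin subunits. The largest differences were rises of the laminin-binding subunit ITGA7 and of ITGB8, and a fall of the kindlin FERMT1.

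Over all 34 measured members, 10 rose, 10 fell and 14 did not pass the test, where 40.1% of all genes changed, 21.4% rose and 18.6% fell. Relative to the hybridization spike-ins the split was 2 rises and 19 falls, and relative to the poly-A spike-ins 6 and 15. The median change was 0.0061 (all genes -0.0038), and the median absolute change was 0.168 (all genes 0.106). Without knockdown replicate 2 the number of rises was 6. ITGA7, ITGB8 and FERMT1 changed at least 2-fold, as did 1.06% of all genes. The 3 knockdown arrays lay entirely above the 3 control arrays for 11 members (26.2% of all genes) and entirely below them for 12 (23.9% of all genes), so that the groups did not overlap for 23 of 34 members where they did not overlap for 50.0% of all genes. Of the 20 members that changed, 11 passed in the same direction under each of the 16 alternatives that gave a value: ITGA7 and ITGB8 as rises, and ITGA2, FERMT1, FERMT2, ILK, LIMS1, PTK2, PXN, VCL and ACTN4 as falls.

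**Figure D1:**
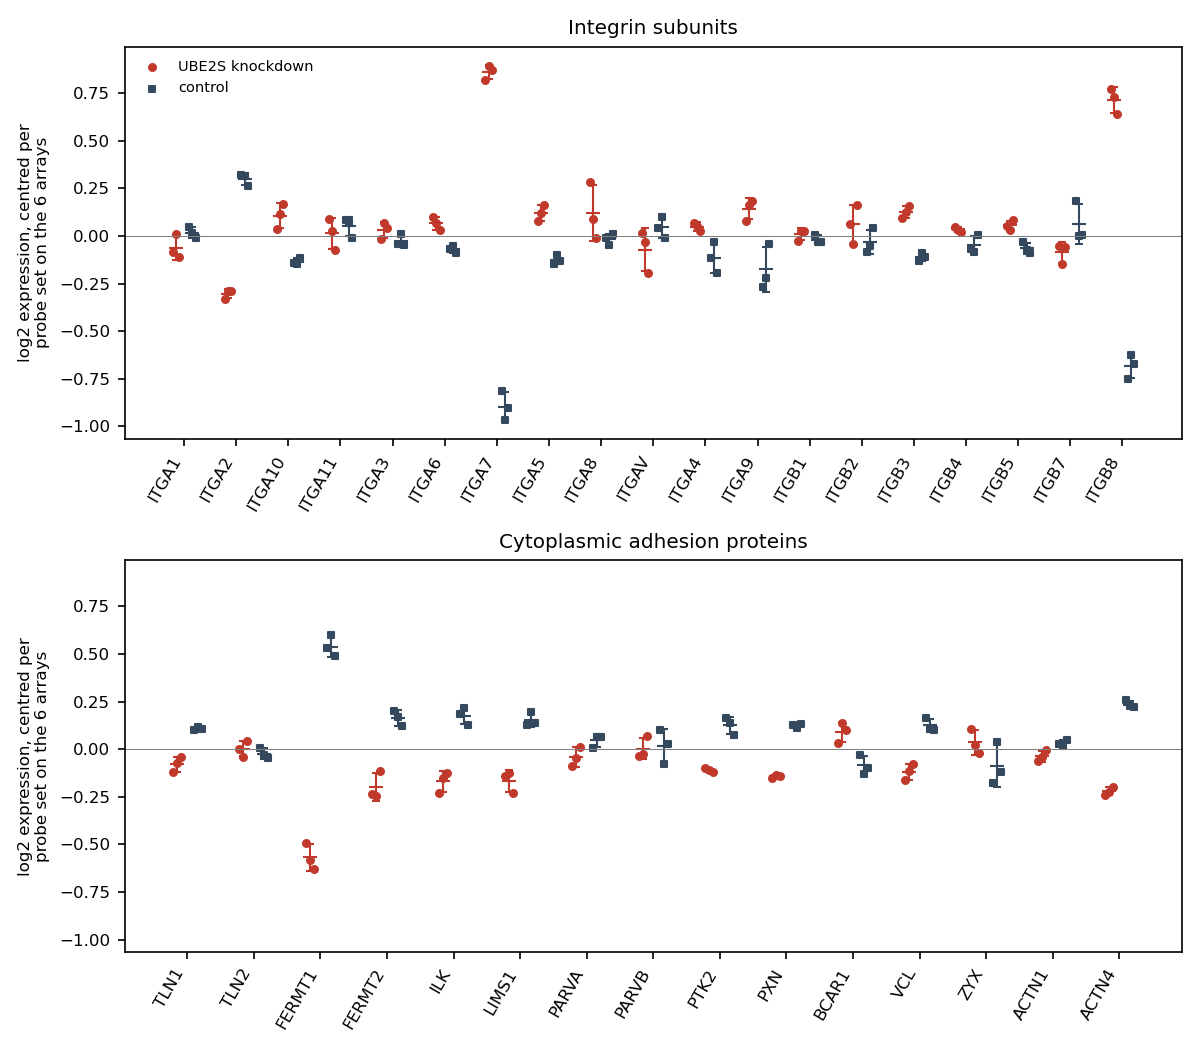
Log2 expression of each of the 34 members on each array, centred per probe set on the 6 arrays, for 3 UBE2S knockdown arrays (circles) and 3 control arrays (squares). Bars are the mean and SD of a group. ITGA7 and ITGB8 lie furthest above the control arrays (changes 1.76 and 1.40), and FERMT1 lies furthest below (-1.11).

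Among the alpha subunits that pair with a beta subunit to bind laminin, ITGA7 stood out. ITGA7, known mainly as the laminin receptor of muscle, read 0.82, 0.89 and 0.87 on the knockdown arrays and -0.82, -0.97 and -0.90 on the control arrays. All knockdown values were far above all control values, with no overlap. The change was 1.76 (SE 0.05, adjusted p 2.61e-07), a 3.38-fold rise and the 9th largest rise of all genes, and it rests on 1 probe set of the middle signal class. Signal classes (high, middle and low) are a coarse reading of the signal before centring, taken from the rounding of the deposited values. ITGA6, a subunit of laminin receptors in epithelia, rose by 0.13 (SE 0.04, adjusted p 0.0182), a call that was lost without knockdown replicate 1 (adjusted p 0.061), knockdown replicate 2 (0.0591), control replicate 1 (0.0542) or control replicate 3 (0.0559). Relative to the hybridization spike-ins its change was -0.03. ITGA3, the third subunit of this class, changed by 0.06 (adjusted p 0.294) with overlapping groups.

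ITGA6 also showed how unevenly the probe sets of 1 member could behave. One of its probe sets read 0.17, 0.20 and 0.31 in knockdown and -0.19, -0.17 and -0.25 in control, a change of 0.43 (SE 0.05), while the other ones changed by 0.0029 and -0.03 with overlapping groups. The first differed from the mean of the others by 0.44 (SE 0.08, adjusted p 0.0109 over the probe sets of all genes with at least 2). The small rise of the gene thus came from 1 of its 3 probe sets.

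The collagen-binding alpha subunits moved in both directions. ITGA2, the alpha subunit of a collagen receptor of platelets and epithelial cells, read -0.33, -0.29 and -0.29 on the knockdown arrays and 0.32, 0.31 and 0.26 on the control arrays. Knockdown values were all below control values, and the spread within each group was small beside the gap. Its level fell to 65.9% of the control (change -0.60, SE 0.04, adjusted p 7.99e-06), and its 2 probe sets, both of the high signal class, gave -0.62 and -0.58. With probe sets averaged and arrays weighted equally, ITGA2 was the only 1 of the 19 measured integrin subunits that fell on the deposited scale. ITGA10, a collagen receptor subunit known from cartilage, read 0.03, 0.12 and 0.17 in knockdown and -0.14, -0.15 and -0.11 in control. The groups did not overlap, and the change was 0.24 (SE 0.04, adjusted p 0.00245), but 0.07 (adjusted p 0.191) on the hybridization spike-in scale. Of its 3 probe sets 2 rose (0.43 and 0.30) and 1 changed by -0.01, and the last differed from the others (adjusted p 0.00947). ITGA1 (-0.08, adjusted p 0.186) and ITGA11 (-0.04, adjusted p 0.631), both collagen receptor subunits, did not pass the test and their groups overlapped. Relative to the hybridization spike-ins both were lower (-0.25, adjusted p 0.00633, and -0.20, adjusted p 0.0304). ITGA1 was also lower relative to the poly-A spike-ins (-0.18, adjusted p 0.0233).

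Among the alpha subunits that recognise the RGD sequence of fibronectin and vitronectin, ITGA5 rose and the others did not pass the test. ITGA5, which with ITGB1 forms the classical fibronectin receptor, read 0.08, 0.12 and 0.16 in knockdown and -0.15, -0.10 and -0.13 in control. The groups did not overlap. Its change was 0.25 (SE 0.04, adjusted p 0.00105), and all 4 of its probe sets rose, by 0.18 to 0.29, although relative to the hybridization spike-ins the change was 0.08 (adjusted p 0.127). ITGAV, the common alpha subunit of the vitronectin receptors, changed by -0.12 (SE 0.06, adjusted p 0.171) with overlapping groups. Represented by the median of its probe sets, ITGAV passed as lower (-0.15, adjusted p 0.0468), as it did by its most variable one (-0.44, adjusted p 0.0403). Relative to the hybridization and poly-A spike-ins it was also lower (-0.28, adjusted p 0.0133, and -0.21, adjusted p 0.026). Its 5 probe sets disagreed: 1 rose by 0.22 and differed from the others (adjusted p 0.0302), 2 fell by 0.44 and 0.25, and 2 did not pass (0.03 and -0.14). In the probe set that fell most, knockdown replicate 3 read -0.66 where the other knockdown arrays read -0.07 and -0.14, and the control arrays read 0.23, 0.17 and 0.07. ITGA8, measured only by 1 probe set of the low signal class, read 0.28, 0.09 and -0.01 in knockdown and did not pass (0.14, adjusted p 0.158), but passed without knockdown replicate 3 (0.20, adjusted p 0.0425).

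ITGA4 and ITGA9 form a class of their own, which binds fibronectin's alternatively spliced segments, VCAM1 and other ligands. ITGA9 read 0.08, 0.16 and 0.18 in knockdown and -0.27, -0.22 and -0.04 in control, with no overlap. The change was 0.32 (SE 0.06, adjusted p 0.00422), and 0.15 (adjusted p 0.0954) on the hybridization spike-in scale. A single probe set carried most of it (0.75, SE 0.14), and the others changed by 0.24 and -0.04 without passing. ITGA4, a subunit often described in leukocytes and melanoma, rose by 0.16 (SE 0.05, adjusted p 0.0275). This call was lost without knockdown replicate 1 (adjusted p 0.0779), knockdown replicate 2 (0.0746), control replicate 1 (0.0712) or control replicate 3 (0.0773), and with the hybridization spike-ins the change was -0.0049.

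The beta subunits had 3 rises, 0 falls and 4 genes that did not pass, out of 7 measured, on the deposited scale. Over all genes 21.4% rose and 18.6% fell on this scale. At an unadjusted p under 0.05 limma gave 1 lower subunit, ITGB7. ITGB8, which with ITGAV binds latent TGF-beta and releases it in active form, was the largest. On the knockdown arrays it read 0.77, 0.73 and 0.64, and on the control arrays -0.75, -0.63 and -0.67. Every knockdown value was above every control value. The change was 1.40 (SE 0.05, adjusted p 7.33e-07), a 2.63-fold rise and the 29th largest of all genes. All 4 probe sets rose, but by different amounts: 0.52 for the probe set of the high signal class and 1.03, 1.88 and 2.15 for those of the middle class. The first was 1.17 below the mean of the others (adjusted p 0.000248) and the last 1.01 above it (adjusted p 0.000240). In the probe set with the smallest rise, knockdown replicate 3 read 0.15 where the other knockdown arrays read 0.48 and 0.44.

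ITGB3, the beta subunit of the vitronectin receptor of invasive melanoma, read 0.10, 0.13 and 0.16 in knockdown and -0.13, -0.09 and -0.11 in control. The groups did not overlap. Its change was 0.24 (SE 0.04, adjusted p 0.000977), and 0.07 (adjusted p 0.179) on the hybridization spike-in scale. Of its 7 probe sets 4 rose and 3 did not pass, over a range from 0.03 to 0.53. ITGB5, another partner of ITGAV, rose by 0.12 (SE 0.04, adjusted p 0.0292) on 1 probe set, which did not pass in the test over single probe sets (adjusted p 0.0661). That call was lost without knockdown replicate 1, 2 or 3 (adjusted p 0.0661, 0.0562 and 0.0757) or control replicate 2 or 3 (0.0735 and 0.0855), and the change was -0.05 relative to the hybridization spike-ins. ITGB4, the long-tailed partner of ITGA6 in hemidesmosomes, changed by 0.08 (adjusted p 0.133) without overlap, with 2 of 8 probe sets that rose (0.24 and 0.32). ITGB2, the leukocyte beta subunit, changed by 0.09 (adjusted p 0.266).

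ITGB1, the beta subunit shared by most collagen, laminin and fibronectin receptors, gave a gene mean near 0 that hid opposite probe sets. The gene changed by 0.03 (SE 0.04, adjusted p 0.595). One of its 5 probe sets read -0.23, -0.19 and -0.15 in knockdown and 0.15, 0.25 and 0.15 in control, a fall of 0.37 on the log2 scale, while 2 others rose by 0.22 and 0.14. The falling probe set lay 0.50 below the mean of the others (SE 0.06, adjusted p 0.00190), and all 3 were of the high signal class. Represented by its most variable probe set, ITGB1 was thus lower (-0.37), and it was also lower relative to the hybridization spike-ins (-0.14, adjusted p 0.029). ITGB7, a lymphocyte subunit, had 1 probe set that fell (-0.38) and 1 that did not pass (0.08), which differed (adjusted p 0.0195), with -0.15 for the gene (adjusted p 0.0776). Relative to the hybridization and poly-A spike-ins ITGB7 was lower (-0.32, adjusted p 0.00431, and -0.25, adjusted p 0.0102). It also passed as lower with array weights (-0.20, adjusted p 0.028).

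**Figure D2:**
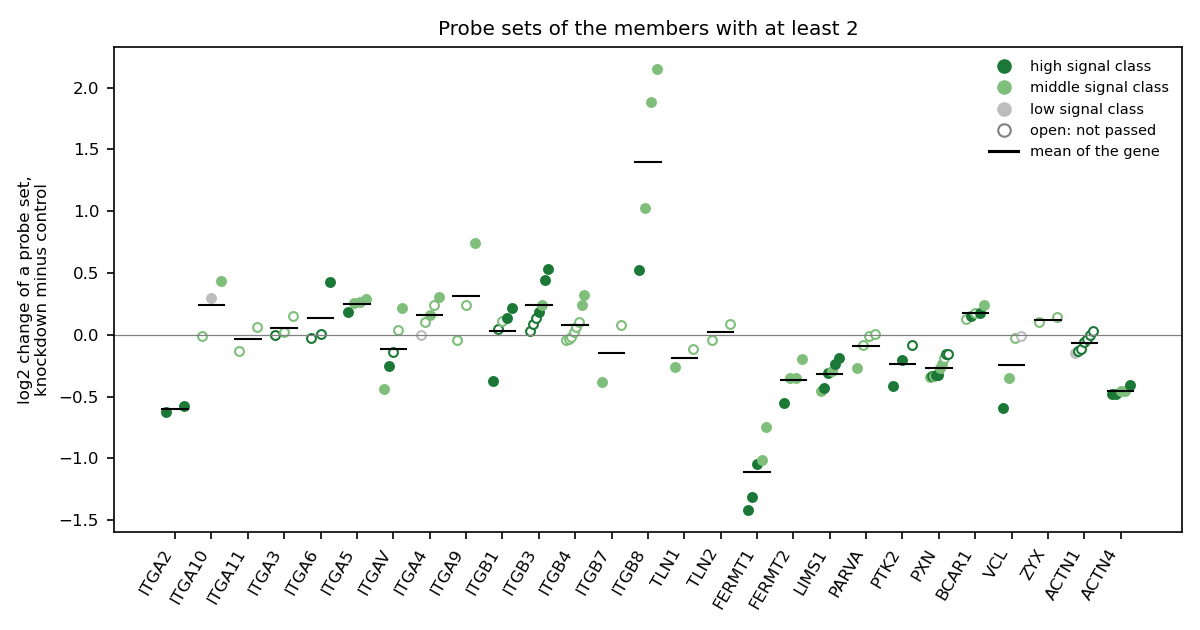
Log2 change of every probe set of the 27 members with at least 2 probe sets, knockdown minus control. Filled points passed the test over all probe sets, open points did not, shades give the signal class and the black line is the mean of the gene. ITGB8 spans 0.52 to 2.15 and FERMT1 -1.42 to -0.75, while ITGB1 and ITGAV have filled points on both sides of 0.

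Of the 122 member probe sets tested singly, 27 rose, 41 fell and 54 did not pass, where 37.2% of all probe sets with 1 symbol changed. Among the 27 members with at least 2 probe sets, 13 had a probe set that differed from the mean of the others, as did 28.2% of all such genes. ITGB1 and ITGAV were the 2 members with probe sets that passed in opposite directions. Members whose probe sets agreed in direction were ITGA2 (2 of 2 fell), ITGA5 (4 of 4 rose), ITGB8 (4 of 4 rose), FERMT1 (5 of 5 fell), FERMT2 (4 of 4 fell), LIMS1 (6 of 6 fell) and ACTN4 (5 of 5 fell). In size, ITGB8, FERMT1 and FERMT2 each had a probe set that differed from the mean of the others (adjusted p 0.000240, 0.00451 and 0.0163). The count for LIMS1 leaves out probe sets that carry several symbols, whose groups overlapped. Only 5 of the 122 probe sets were of the low signal class, 65 were of the middle and 52 of the high class.

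Talins and kindlins, which bind the beta tail and activate the receptor, had 3 falls among 4 genes, FERMT1 with 1 of the largest. Of all genes 18.6% fell. FERMT1 (kindlin-1), the kindlin of epithelial cells whose loss causes the skin blistering of Kindler syndrome, read -0.49, -0.58 and -0.63 on the knockdown arrays and 0.53, 0.60 and 0.49 on the control arrays. The groups were far apart. Its level fell to 46.4% of the control (change -1.11, SE 0.05, adjusted p 1.90e-06), and its 5 probe sets gave -0.75 to -1.42. FERMT2 (kindlin-2), the kindlin of most other cells, read -0.23, -0.25 and -0.12 in knockdown and 0.20, 0.17 and 0.12 in control. The groups did not overlap, and it fell to 77.8% of the control (-0.36, SE 0.05, adjusted p 0.000431). TLN1, the widely expressed talin, read -0.12, -0.07 and -0.04 in knockdown and 0.10, 0.12 and 0.11 in control, with no overlap. It fell to 87.8% (-0.19, SE 0.04, adjusted p 0.00388), but did not pass when the probe set with a suffix for shared probes was left out (-0.12, adjusted p 0.122). TLN2, the second talin, did not pass (0.02, adjusted p 0.666) with overlapping groups and turned to -0.14 (adjusted p 0.0282) on the hybridization spike-in scale.

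Paralogues of this layer were compared within each array, a difference that no scaling of the arrays can move. FERMT1 minus FERMT2 lay between -0.51 and -0.26 on the knockdown arrays and between 0.33 and 0.43 on the control arrays, a difference of -0.74. ACTN4 minus ACTN1 lay between -0.19 and -0.18 in knockdown and between 0.17 and 0.23 in control, a difference of -0.39. For TLN1 minus TLN2 the difference was -0.21, and for PARVA minus PARVB -0.07. The first 3 pairs did not overlap and reached p 0.1 in a two-sided exact permutation test of 3 against 3 arrays, the smallest p it allows (0.133 adjusted over 4 pairs), and the parvins gave an exact p of 0.4. No pair could have passed a threshold of 0.05 in this design.

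The complex of ILK, PINCH and parvin, which binds integrin tails and carries signals to actin, fell in its ILK and PINCH parts. ILK, integrin-linked kinase, a pseudokinase scaffold, read -0.23, -0.15 and -0.13 in knockdown and 0.18, 0.22 and 0.13 in control. The groups did not overlap, and ILK fell to 78.7% of the control (-0.34, SE 0.04, adjusted p 0.000375) on 1 probe set whose probes can match several transcripts. LIMS1 (PINCH1), the LIM-domain adaptor bound to ILK, read -0.14, -0.13 and -0.23 in knockdown and 0.13, 0.19 and 0.14 in control. Its fall to 80.2% (-0.32, SE 0.04, adjusted p 0.000518) was shared by all 6 of its probe sets, among them the only 1 without the suffix for shared probes (-0.45). The near-identical genes LIMS3 and LIMS4 can share probes with LIMS1. Probe sets that carry the symbols of LIMS1 and these genes together, left out of the gene mean, changed by -0.016 and -0.061 with overlapping groups. The actin-binding parvins did not pass on the deposited scale: PARVA changed by -0.09 (adjusted p 0.135) and PARVB by -0.01 (adjusted p 0.891), and relative to the hybridization spike-ins both were lower (-0.25 and -0.18).

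The kinase and docking proteins of the plaque split. PTK2, focal adhesion kinase, read -0.10, -0.11 and -0.12 in knockdown and 0.16, 0.14 and 0.08 in control, with no overlap. It fell to 85.0% (-0.24, SE 0.04, adjusted p 0.00130), by 0.42 and 0.20 in 2 probe sets, and the remaining probe set did not pass (-0.09) and lay above the others (adjusted p 0.0310). PXN, the scaffold paxillin, read -0.15, -0.13 and -0.14 in knockdown and 0.13, 0.11 and 0.13 in control. The groups were tight, with SDs of 0.0090 and 0.0128, and PXN fell to 83.2% (-0.27, SE 0.03, adjusted p 0.000339). Of its 10 probe sets 7 fell and none rose (lowest -0.34, highest -0.15). BCAR1 (p130Cas), a docking protein phosphorylated downstream of PTK2 and SRC, was the cytoplasmic member that rose: it read 0.03, 0.14 and 0.10 in knockdown and -0.03, -0.13 and -0.10 in control. The change of 0.17 (SE 0.04, adjusted p 0.0141) was lost without knockdown replicate 2 (0.15, adjusted p 0.0562), and was 0.0067 (adjusted p 0.915) on the hybridization spike-in scale. All 5 BCAR1 probe sets carry the suffix for probes shared with other transcripts.

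Of the proteins that link the plaque to actin, VCL and ACTN4 fell. ACTN4, the alpha-actinin that bundles actin in motile cells, read -0.24, -0.22 and -0.20 in knockdown and 0.26, 0.23 and 0.22 in control. The gap was wide beside the spread, and ACTN4 fell to 73.0% of the control (-0.45, SE 0.03, adjusted p 2.53e-05) with its 5 probe sets between -0.48 and -0.41. VCL, vinculin, which reinforces the bond of talin to actin, read -0.16, -0.11 and -0.08 in knockdown and 0.17, 0.11 and 0.10 in control. VCL fell to 84.4% (-0.25, SE 0.04, adjusted p 0.00136), but the probe sets were uneven: 2 fell (-0.59 and -0.35) and 2 did not pass (-0.03 and -0.01), and the lowest differed from the others (adjusted p 0.00562). ACTN1, the other non-muscle alpha-actinin, changed by -0.07 (adjusted p 0.176) without overlap and passed without the shared-probe sets (-0.14, adjusted p 0.0304). The latter value includes a probe set of the low signal class (-0.15). Relative to the hybridization and poly-A spike-ins ACTN1 was lower (-0.23, adjusted p 0.00306, and -0.16, adjusted p 0.0109). ZYX, the LIM protein zyxin, did not pass (0.12, adjusted p 0.166), but passed without control replicate 2 (0.18, adjusted p 0.0297).

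**Figure D3:**
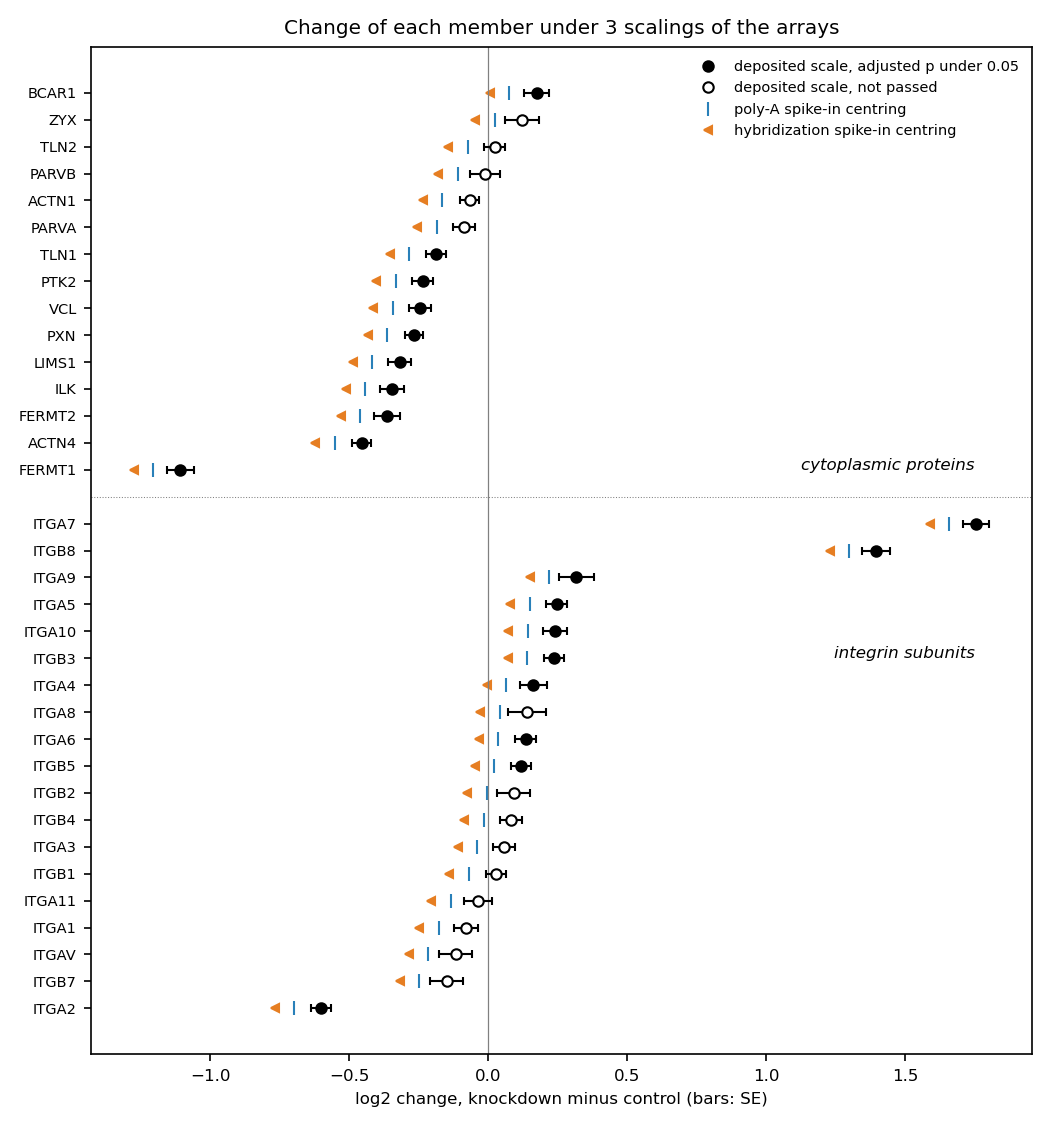
Log2 change of each member (circles, bars are the SE; filled where the adjusted p was under 0.05) on the deposited scale, and with the arrays centred on poly-A (ticks) or hybridization spike-ins (triangles). Both centrings move every member to the left, and ITGA6, ITGA4 and ITGB5, which rose on the deposited scale, cross 0 with the hybridization spike-ins, while ITGA7 and ITGB8 stay right of 0 and the 10 members that fell stay left.

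RefSeq promoter windows were held for 25 of the members, 43 windows in all (GRCh38.p14, 250 bases before to 50 after a start site), and 4 motifs of factors known to act on adhesion genes or interferon-induced genes were searched on both strands. The serum response factor's CArG box was found in 1 of the 43 member windows (ACTN1) and in 1.29% of all 35116 windows. The TEAD motif GGAATG was found in 6 of the 43 (ACTN1, ITGA10, ITGA5, ITGB1, PXN and VCL) and in 14.0% of all windows. The AP-1 motif TGANTCA was found in 4 of the 43 (ACTN4, BCAR1, ITGA5 and LIMS1) and in 7.71% of all windows, and the interferon response element in 1 of the 43 (ITGB5) and in 3.57%. Members with a match included genes that rose, fell and did not pass, and a match says only that these letters are present. The 250 bases before the start site are shown for the integrins with a window that rose and fell most, ITGB8 (chr7:20330650-20330899, plus strand) and ITGA2 (chr5:52989102-52989351, plus strand), and for the actin linkers that fell, VCL (chr10:73997866-73998115, plus strand) and ACTN4 (chr19:38647399-38647648, plus strand, the first of its 2 windows). Capitals mark the TEAD motif in VCL, 171 bases before the start, and the AP-1 motif in ACTN4, 248 bases before the start, and the windows of ITGB8 and ITGA2 held none of the 4 motifs.
ITGB8: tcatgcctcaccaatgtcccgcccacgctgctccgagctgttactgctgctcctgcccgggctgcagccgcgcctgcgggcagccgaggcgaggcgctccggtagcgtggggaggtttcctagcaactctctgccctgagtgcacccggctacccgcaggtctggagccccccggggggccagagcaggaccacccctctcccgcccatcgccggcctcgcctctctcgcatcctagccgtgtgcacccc
ITGA2: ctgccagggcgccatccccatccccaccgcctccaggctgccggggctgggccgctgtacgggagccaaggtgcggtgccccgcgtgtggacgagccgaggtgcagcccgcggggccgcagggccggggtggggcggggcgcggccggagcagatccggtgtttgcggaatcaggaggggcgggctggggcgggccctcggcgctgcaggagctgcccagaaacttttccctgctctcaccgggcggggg
VCL: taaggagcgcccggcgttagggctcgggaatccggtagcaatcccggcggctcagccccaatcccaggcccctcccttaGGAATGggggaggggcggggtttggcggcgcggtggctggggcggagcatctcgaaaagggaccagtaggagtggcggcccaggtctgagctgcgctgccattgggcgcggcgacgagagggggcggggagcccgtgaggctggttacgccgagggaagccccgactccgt
ACTN4: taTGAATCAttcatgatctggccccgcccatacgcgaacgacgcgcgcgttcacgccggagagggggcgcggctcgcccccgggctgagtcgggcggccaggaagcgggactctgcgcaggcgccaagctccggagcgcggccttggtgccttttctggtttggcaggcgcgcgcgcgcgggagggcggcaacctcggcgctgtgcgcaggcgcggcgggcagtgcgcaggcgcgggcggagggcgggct

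Beyond the members, 119 of 126 listed genes of integrin adhesion were measured, in 6 lists of ligands, partners, regulators and effectors, and 39 rose, 25 fell and 55 did not pass, with a median of 0.039. That is 53.8% changed, against 40.1% of all genes. The share changed was 41.9% for the other adaptors and scaffolds and 45.5% for the activity regulators, both near that of all genes, 16.7% for the other alpha subunits, and between 60 and 80% for the ligands, kinases and phosphatases, and membrane partners. Relative to the hybridization spike-ins 25 of the 119 rose and 55 fell, and relative to the poly-A spike-ins 33 and 36, where falls also outnumbered rises over all genes (1764 rises and 9196 falls, and 2486 and 6297). In each list up to 3 genes per direction with the largest change are named.

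Of the 30 measured ligands of the integrins, not all of them matrix proteins, 11 rose and 8 fell (median 0.035). FN1, fibronectin, the ligand of ITGA5 with ITGB1, read -0.60, -0.57 and -0.62 in knockdown and 0.60, 0.57 and 0.58 in control. It fell to 44.2% (-1.18, SE 0.03, adjusted p 3.57e-07) in all 8 of its probe sets. CCN1, a matricellular ligand of ITGAV and ITGA6 receptors, fell to 50.0% (SE 0.05 on the log2 scale) and THBS1, thrombospondin-1, fell by 0.58 (SE 0.04), the latter with probe sets from -1.52 to -0.09. On the other side, LAMB2, a laminin beta chain, read 0.55, 0.55 and 0.58 in knockdown and -0.65, -0.55 and -0.68 in control, a 2.27-fold rise (1.18, SE 0.04, adjusted p 8.75e-07). LAMA5, a laminin alpha chain, rose by 0.51 (SE 0.04), and MFGE8, an RGD-containing ligand of ITGAV receptors, by 0.63 (SE 0.05). The 2 probe sets of LAMA5 changed by 0.85 and 0.17, of which 1 rose and 1 did not pass, and 1 was of the low signal class. Of 8 measured laminin chains 5 rose and 1 fell, with a median of 0.37, a grouping made within the ligand list. Over all genes 21.4% rose and 18.6% fell. The laminin chains that rose besides LAMB2 and LAMA5 were LAMC1 (0.44), LAMB1 (0.39) and LAMA4 (0.35), and the one that fell was LAMB3 (-0.39).

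Membrane partners of integrins had 5 rises and 7 falls among 15 genes (median -0.049). SDC4, syndecan-4, the proteoglycan that binds fibronectin beside integrins, read -0.82, -0.79 and -0.75 in knockdown and 0.75, 0.77 and 0.75 in control, and fell by 1.54 on the log2 scale (SE 0.04, adjusted p 1.64e-07). CAV1, the coat protein of caveolae, fell by 1.39 (SE 0.05), and SLC3A2 (CD98), which binds beta tails, fell by 0.78 (SE 0.04). The tetraspanins CD82, CD9 and TSPAN4, which organise integrins in the membrane, rose by 0.56, 0.42 and 0.39 (SE 0.04 for each). Tetraspanins did not all move this way: CD63 rose by 0.37, but CD81 fell by 0.43 (adjusted p 0.000173) and CD151 did not pass (0.08, adjusted p 0.151). Knockdown arrays lay entirely above control arrays for 6 of the 15 partners (26.2% of all genes) and entirely below for 8 (23.9%).

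Regulators of integrin activity and recycling had 8 rises and 2 falls among 22 genes (median 0.068). KANK1, a talin-binding protein that links adhesions to microtubules, rose by 0.94 (SE 0.04, adjusted p 2.24e-06), SNX17, which returns integrins from endosomes, by 0.46 and RAB11A, a GTPase of the recycling endosome, by 0.45. EHD1, an ATPase of the same recycling route, fell by 0.45, and the GTPase ARF6 fell by 0.26, a call not kept without shared-probe sets (-0.06, adjusted p 0.306). Other adaptors and scaffolds had 10 rises and 3 falls among 31 genes (median 0.060). The adhesion protein TNS2 (tensin-2), TGFB1I1 (Hic-5), a relative of PXN, and ARHGEF6, an exchange factor bound to parvin, rose by 0.57, 0.46 and 0.45. The adaptor CRKL and the actin regulator ENAH fell by 0.34 and 0.32, and NEDD9, a relative of BCAR1, fell by 0.11 (adjusted p 0.0359) but was 0.0064 without shared-probe sets. The NEDD9 call was lost without knockdown replicate 1, 2 or 3 and without control replicate 1 or 2 (adjusted p 0.0634 to 0.113).

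Kinases and phosphatases of adhesions had 4 rises and 5 falls among 15 genes (median 0.034). PTPN12, a phosphatase of BCAR1, fell by 0.33, and the kinases YES1 and ABL1 by 0.31 each. PTPRA, a phosphatase that activates SRC, rose by 0.25, a change that did not pass relative to the hybridization spike-ins (0.08 with an adjusted p of 0.201). SRC and PTPN11 rose by 0.14 and 0.13 on the deposited scale and turned to -0.03 and -0.04 relative to the hybridization spike-ins. Without shared-probe sets PTPN11 changed by 0.02 (adjusted p 0.829). Represented by its most variable probe set, SRC did not pass (0.12, adjusted p 0.227). SRC did not pass without knockdown replicate 2 or 3 or control replicate 1 or 2, nor PTPN11 without knockdown replicate 1 or 3 or control replicate 1 or 2. Among the 6 measured integrin alpha subunits outside the members, which are mostly those of leukocytes and platelets, ITGAE rose by 0.28 (SE 0.04, adjusted p 0.000434; 0.11, adjusted p 0.0603, on the hybridization spike-in scale) and 5 did not pass.

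**Figure D4:**
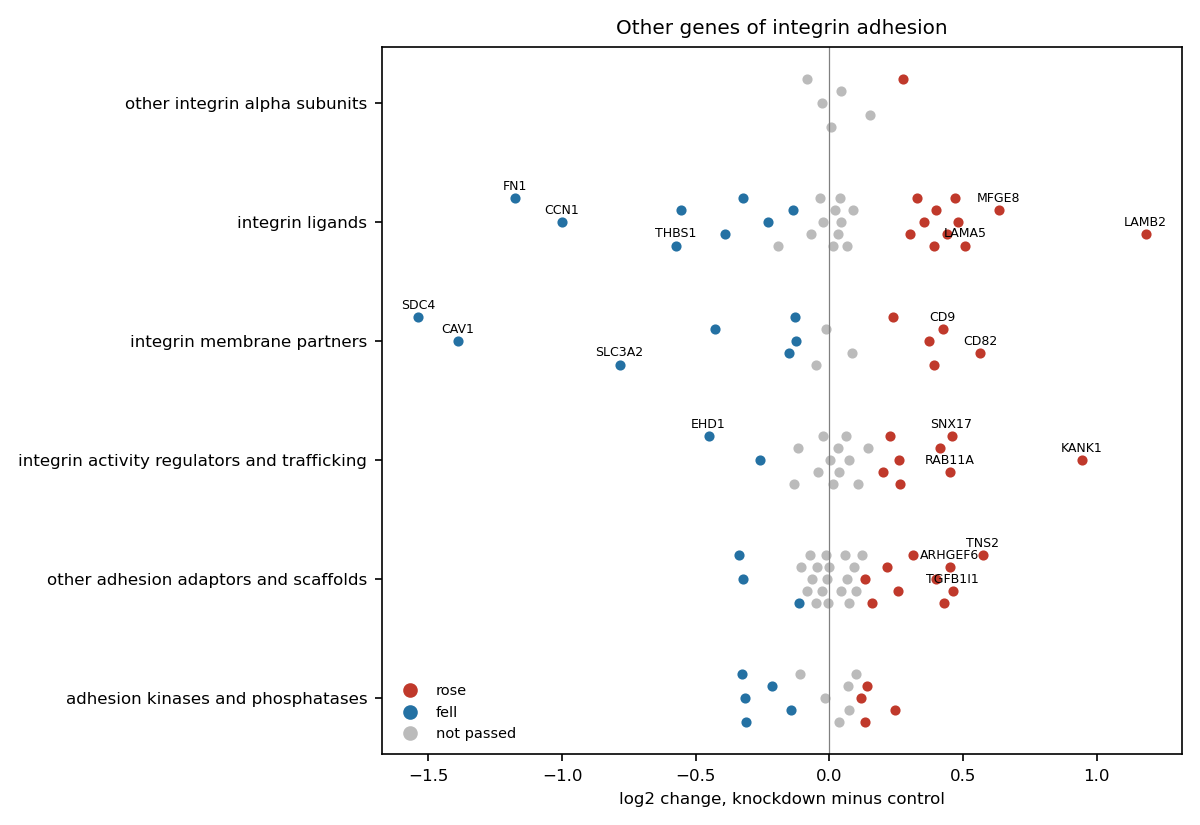
Log2 change, knockdown minus control on the deposited scale, of the 119 measured genes of integrin adhesion outside the members, 1 point a gene, by list; red rose, blue fell and grey did not pass, and vertical offsets within a list only separate points. The falls reach -1.54 (SDC4), -1.39 (CAV1) and -1.18 (FN1) and the rises 1.18 (LAMB2) and 0.94 (KANK1); relative to the hybridization spike-ins 25 genes rose and 55 fell.

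Markers of the cell type and of cells that a culture or a mixed sample could hold were read on the same arrays. Between 20 and 40% of the markers of a list changed, where 40.1% of all genes did. Of 8 measured melanoma and melanocyte markers 2 rose (S100B by 1.09 and TYRP1 by 0.22), MITF fell by 0.72 and 5 did not pass, and their mean centred value lay between 0.027 and 0.071 on the knockdown arrays and between -0.086 and -0.012 on the control arrays. Centred values do not show whether a marker is present. The 6 fibroblast markers had 1 rise (LUM, 0.93) and 1 fall (DCN, -0.23), and their mean centred value lay between 0.022 and 0.071 on the knockdown arrays and between -0.101 and -0.055 on the control arrays. Blood markers had 1 rise (CD68, 0.40) among 5, with a mean between 0.039 and 0.067 in knockdown and between -0.114 and 0.0005 in control. Keratinocyte markers had 1 rise (KRT10, 0.22) and 1 fall (KRT14, -0.46) among 5, with a mean between -0.014 and 0.0088 in knockdown and between 0.017 and 0.059 in control. Endothelial markers had 1 rise (VWF, 0.16) among 5, with a mean between -0.016 and 0.068 in knockdown and between -0.046 and -0.024 in control. For each of the 5 lists the means of the groups did not overlap, with the keratinocyte markers lower in knockdown and the other lists higher. Taken gene by gene, the groups did not overlap for 50.0% of all genes. Their part in the changes of the integrins and adhesion proteins was not tested, and fewer cells of a type and less RNA per cell cannot be told apart in bulk RNA.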

How the data were processed

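Per the labels' protocols, biotinylated cRNA made from Trizol-extracted total RNA of 6 A375 samples was put on Affymetrix arrays. The deposited table holds log2 expression, and the submitters' processing notes name RMA, affy and limma without a version or role. The base of the logarithm is taken from RMA, which quantile-normalizes arrays. Each probe set had been centred on its median over the 6 arrays (largest absolute median 4.85e-07), so levels and signal over background are unknown. The rounding step of single-precision values gave a high (8 to 16), middle (4 to 8) or low (2 to 4) signal class before centring; a class does not show detection. Of 49395 probe sets, 44988 have 1 symbol, 1832 several and 2473 none, and 102 are array controls.

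Probe sets of a gene were averaged and the groups compared by limma's lmFit and eBayes (version 3.58.1, R 4.3.3), with equal weights and no block. All tests are two-sided. Probe sets were also tested singly and against the mean of the gene's others. The scripts were tested on simulated data. Some genes of this system are not reported here. Named genes are UBE2S, the members and up to 3 changed genes per direction in each adhesion list, and other genes were named after their values were seen. Members, lists and markers were chosen with earlier results of these data known. The tests between probe sets and between paralogues, the laminin grouping and the motifs were added after seeing the data. The closing section gives the effect of 10 alternative settings and of leaving out each of the 6 arrays. No genome build is named for the arrays, and promoter coordinates are RefSeq's (GRCh38.p14).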

Additional observations from a re-analysis of the deposited data

Results flagged for a closer look

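A probe set that carries the symbols ITGB6 and LINC02478 together, and therefore entered no gene of the comparisons, read 0.02, 0.16 and 0.03 on the knockdown arrays and -0.02, -0.26 and -0.08 on the control arrays. It was 0.190 higher in knockdown without overlap of the groups, and is of the low signal class. The other probe set with the same symbols was 0.018 higher with overlapping groups. Neither can be given to ITGB6, the epithelial partner of ITGAV, alone. Among probe sets with several symbols that include a member, only those higher in knockdown without overlap were flagged. Those of LIMS1 with LIMS3 and LIMS4 had overlapping groups and are given with LIMS1 above.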

How the results depend on the processing

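Scaling of the arrays moved the counts most. With hybridization spike-in centring 2 members rose and 19 fell (integrin subunits 2 and 6, cytoplasmic rises 0), adhesion list genes gave 25 and 55 and all genes 1764 and 9196. Poly-A spike-in centring gave 6 member rises, 4 falls of integrin subunits, 0 cytoplasmic rises and 2486 rises and 6297 falls of all genes. The median change of members was -0.1615 and -0.0917 with these centrings, -0.0460 with the largest-variance probe set, -0.0027 with the median probe set, -0.0122 without the low signal class and -0.0158 with array weights. Falls of integrin subunits numbered 4 with the largest-variance probe set and 2 with the median probe set or array weights. Cytoplasmic rises numbered 0 with unshared probe sets, a setting in which BCAR1 had no value. Leaving out 1 array gave 6 to 10 member rises, 10 member falls each time, 6 to 9 rises of integrin subunits, 0 to 2 cytoplasmic rises and a median from -0.0016 to 0.0350. Among the members and named genes that passed on at least 1 of the scales compared, signs turned with hybridization spike-ins for ITGA6 (-0.0331), ITGA4 (-0.0049), ITGB1 (-0.1396), ITGB5 (-0.0477), TLN2 (-0.1432), SRC (-0.0276) and PTPN11 (-0.0352), with the largest-variance probe set for ITGB1 (-0.3709) and with unshared probe sets for NEDD9 (0.0064). Beyond what the settings do by construction, the cause was not tested.

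The replicate numbers are not said to pair arrays, and same-numbered arrays did not deviate together (correlations -0.0303, -0.0165 and -0.1049). With the replicate block 9 members rose and 10 fell, and ITGB5 was the member whose call was lost (0.12, adjusted p 0.0743). Array median centring and the robust variance model lost or added no member call. With 3 arrays a group, small changes and those of the low signal class are the least certain, and the true scale between groups is unknown.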
